A study of Rattus norvegicus with 8 samples.

Results

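The genes described here are 9 regulators of messenger RNA decay: the zinc finger proteins Zfp36, Zfp36l1 and Zfp36l2, the antiproliferative proteins Btg1, Btg2, Tob1 and Tob2, the Ccr4-related enzyme Noct, and the endoribonuclease Zc3h12a. They were measured in primary vascular smooth muscle cells, grown from Sprague-Dawley rat thoracic aortas in M199 medium with fetal bovine serum. The control cells received no treatment. The AngII cells were deprived of serum overnight and then exposed for 3 h to angiotensin II (AngII) at 0.1 uM, a vasoconstrictor peptide. Serum deprivation is stated for the AngII cells only, so it and AngII cannot be told apart from the labels, and nothing in them says how many animals each culture came from. All 9 listed symbols had a locus in the RNA table, out of 14761 symbols with a locus of their own, and all 9 were among the 8349 expressed symbols, those with FPKM (sequenced fragments scaled to transcript length and library size) of 1 or more in at least 1 library. Each symbol was represented by its locus with the highest mean FPKM, together with the enriched regions there of H3K4me3, the histone modification found at promoters, and of H3K36me3, the modification laid down along transcribed genes. With 1 library for each condition and assay, none of the differences can be set against replicates, and none was tested. The genes were chosen by name with their AngII-to-control FPKM ratios known, so these ratios are a description only. In bulk RNA, fewer cells of a type and less RNA per cell cannot be told apart.

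Zfp36 family proteins bind AU-rich elements in the 3′ ends of messenger RNAs, many of them encoding cytokines and early response factors, and recruit the CCR4-NOT complex, which shortens the poly(A) tail. Btg and Tob proteins bind the deadenylase subunits of the same complex and are known for slowing cell growth. Zc3h12a, also called Regnase-1, cuts stem-loops in inflammatory messenger RNAs. Noct resembles the yeast deadenylase Ccr4, is known for its rhythmic and rapidly inducible RNA, and has been described as an NADP(H) phosphatase. Several of these genes are themselves classic early response genes, whose RNAs appear quickly after growth factors or hormones and decay quickly.

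The cells carried smooth muscle RNA in both libraries. Tagln, a smooth muscle actin-binding protein, measured 5103 and 5244 FPKM in the control and AngII libraries, and 6 of 7 smooth muscle markers with a locus were expressed. None of 4 endothelial markers with a locus was expressed (highest value 0.367 FPKM, summed level 0.718 and 0.462), and of 7 leukocyte markers only Cd14 was (summed level 5.87 and 7.26 FPKM). Tie1 among the endothelial and Ptprc, Itgam, Cd3e and Adgre1 among the leukocyte markers were listed at 0 in both libraries. Such a 0 need not mean that the RNA was absent, since Mcl1, a survival gene that cells use widely, was also listed at 0 in both. Only loci with an estimate flagged as usable in both libraries were kept, so that flag does not mark such a 0. Of 5 fibroblast markers 4 were expressed, led by Lum at 140.0 and 111 FPKM, and their summed level was 153 FPKM in control and 120.1 after AngII; the part of such cells in the values below was not tested. Over all expressed symbols the median log2 ratio, log2((AngII FPKM + 1)/(control FPKM + 1)), was -0.22.

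The 5 genes that differed most in RNA are taken here, and H3K4me3, found at all 9 loci, did not set them apart. The sequences upstream of these 5 genes are shown as description only. They are the 250 bases before the annotated start in RefSeq on the GRCr8 assembly, read 5′ to 3′ along the gene, and all 9 genes had an entry. Capitals mark every match to a motif searched on both strands. The Noct window lies at chr2:137421824-137422073 on the plus strand, Btg2 at chr13:48087691-48087940 on the minus strand, Zfp36 at chr1:92799109-92799358 on the minus strand, Zfp36l2 at chr6:16242372-16242621 on the plus strand and Btg1 at chr7:33227899-33228148 on the plus strand.
Noct: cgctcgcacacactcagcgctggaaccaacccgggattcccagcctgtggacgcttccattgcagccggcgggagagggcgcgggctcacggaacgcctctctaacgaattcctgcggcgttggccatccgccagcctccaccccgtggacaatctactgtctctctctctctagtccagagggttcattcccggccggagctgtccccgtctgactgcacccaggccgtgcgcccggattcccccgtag
Btg2: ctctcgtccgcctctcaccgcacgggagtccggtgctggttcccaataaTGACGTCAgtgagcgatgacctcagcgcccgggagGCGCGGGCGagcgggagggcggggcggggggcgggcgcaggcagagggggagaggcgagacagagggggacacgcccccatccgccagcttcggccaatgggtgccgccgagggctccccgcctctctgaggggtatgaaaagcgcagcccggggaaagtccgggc
Zfp36: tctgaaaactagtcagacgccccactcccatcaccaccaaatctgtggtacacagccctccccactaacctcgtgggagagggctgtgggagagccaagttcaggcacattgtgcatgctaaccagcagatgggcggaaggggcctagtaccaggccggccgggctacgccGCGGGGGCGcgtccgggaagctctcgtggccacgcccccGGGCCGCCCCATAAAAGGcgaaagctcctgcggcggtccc
Zfp36l2: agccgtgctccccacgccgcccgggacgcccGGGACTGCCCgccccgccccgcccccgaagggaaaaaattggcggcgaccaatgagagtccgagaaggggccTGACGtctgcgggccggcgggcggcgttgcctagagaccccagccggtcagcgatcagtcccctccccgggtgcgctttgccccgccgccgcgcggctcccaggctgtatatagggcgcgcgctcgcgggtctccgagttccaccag
Btg1: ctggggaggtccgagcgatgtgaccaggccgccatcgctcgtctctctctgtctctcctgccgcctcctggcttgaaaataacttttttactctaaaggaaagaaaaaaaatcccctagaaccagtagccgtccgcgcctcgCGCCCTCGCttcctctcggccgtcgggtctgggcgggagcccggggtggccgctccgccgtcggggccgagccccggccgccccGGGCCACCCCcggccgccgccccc

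The motifs searched were the full cyclic AMP response element TGACGTCA, its core TGACG, the AP-1 site TGANTCA, the Egr site GCGNGGGCG, the E-box CACGTG, the TATA box TATAAA, the CArG box bound by serum response factor, and a loose NF-kB pattern. That pattern was GGGNNNYYCC, with N any base and Y C or T. It does not ask for the purine after GGG of the stricter NF-kB site, and no match shown here has that purine. Btg2 held the full cyclic AMP response element 201 to 194 bases before its start, which 1.59% of all 33469 RefSeq promoters hold in the same window, and an Egr site at 166 to 158 bases. Zfp36 held a CArG box 32 to 23 bases before its start, found in 1.5% of promoters, an Egr site at 79 to 71 bases, and an NF-kB match at 40 to 31 bases that shares 2 bases with the CArG box. Zfp36l2 held the TGACG core (18.2% of promoters) at 147 to 143 bases and an NF-kB match (15.7% of promoters) at 219 to 210 bases. Btg1 held an Egr site (4.29% of promoters) on the opposite strand at 108 to 100 bases and an NF-kB match at 24 to 15 bases. The Noct window held none of these letters, which says only that they are not in these 250 bases. G and C made up 65.2% to 73.6% of the 5 windows, against a median of 51.2% over all promoters. Matches are descriptions of the reference sequence and were not tested as binding sites.

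Noct was the member that differed most, and its RNA went from the lowest of the 9 to the middle of the list. Noct (chromosome 2, 140120310 to 140140518 on rn4) stood at 1.92 FPKM in control, with deposited bounds of 0.903 to 2.94, and at 39.8 FPKM after AngII, with bounds of 23.3 to 56.3. The level was 20.7 times as high after AngII, which is 3.8 on the log2 scale with 1 FPKM added, and the bounds allow anything from 7.93 to 62.4 times. The values of the pair of libraries do not overlap within their bounds, and only 11 of 8349 expressed symbols had a higher ratio. By distance over log2(FPKM + 1) in the 2 libraries, the 3 symbols nearest to Noct were Nr4a1, an orphan nuclear receptor, at a distance of 0.30 (1.38 and 39.8 FPKM), Pdgfb, a growth factor chain, at 0.32 (2.28 and 32.8 FPKM), and Fst, an activin-binding protein, at 0.48 (1.62 and 28.7 FPKM).

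Zfp36 and Zfp36l2 were higher after AngII, while Zfp36l1, the most abundant of the family, differed less. Zfp36, which encodes tristetraprolin (chromosome 1, 83486643 to 83489123), had a control level of 12.2 FPKM (6.73 to 17.6) and an AngII level of 32.1 FPKM (18.7 to 45.6), 2.64 times as high with a log2 ratio of 1.33. Zfp36l2, a paralog with the same zinc finger domain (chromosome 6, 7530953 to 7534988), stood at 16.5 FPKM (9.57 to 23.4) and 70.2 FPKM (40.5 to 99.9), 4.25 times as high with a log2 ratio of 2.02. Bounds were apart for both, by a wider margin for Zfp36l2, where they allow 1.73 to 10.4 times, than for Zfp36, where the lowest quotient they allow is 1.06. Zfp36l1, the third paralog (chromosome 6, 103119302 to 103127362), stood at 115 FPKM (70.7 to 159) and 153 FPKM (95.1 to 211), a log2 ratio of 0.41. Its bounds overlap and allow 0.599 to 2.98 times, so a 2-fold higher level was not resolved. The make-up of the family therefore differed between the libraries. Zfp36l1 supplied 80.0% of the family's summed 143 FPKM in control and 59.9% of 255 FPKM after AngII, while Zfp36l2 went from 11.5% to 27.5% and Zfp36 from 8.49% to 12.6%.

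Btg1 and Btg2, close paralogs, differed in opposite directions. Btg1 (chromosome 7, 34029300 to 34031557) was the most abundant member in both libraries. It measured 674 FPKM (365 to 983) in control, rank 50 among 8349 expressed symbols, and 230.2 FPKM (132 to 329) with AngII, rank 204. Its control level was 2.93 times the AngII level, a log2 ratio of -1.55, the bounds were apart, and only 33 symbols had a lower ratio. Btg2 (chromosome 13, 47026444 to 47030783), known also as a p53 target, had a control level of 40.7 FPKM (26.6 to 54.9) and an AngII level of 119.6 FPKM (78.9 to 160.3), 2.94 times as high with a log2 ratio of 1.53 and bounds apart. The quotient of Btg1 over Btg2 was 16.6 in control and 1.93 after AngII.

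Tob1 and Tob2, the larger proteins of the same family, differed little in their RNA estimates. Tob1 (chromosome 10, 82849185 to 82854440) measured 39.4 FPKM (26.3 to 52.5) in control and 33.1 FPKM (21.0 to 45.3) with AngII, a log2 ratio of -0.24 that is near the median of all expressed symbols and was 0.00 when AngII values were scaled to centre that median. Tob2 (chromosome 7, 120200829 to 120209535) stood at 2.82 FPKM (1.36 to 4.28) and 3.31 FPKM (1.64 to 4.99), a log2 ratio of 0.18. Bounds overlapped for both genes, and those of Tob2 allow 0.383 to 3.66 times, so a difference of 2-fold in either direction was not resolved at this level. Summed over Btg1, Btg2, Tob1 and Tob2 the RNA came to 757 and 386 FPKM. Btg1 made up 89.0% of this sum in control and 59.6% after AngII, and Btg2 5.38% and 31.0%.

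Zc3h12a, the endoribonuclease, lay at the 2-fold threshold, above it by the quotient of FPKM values and below it once 1 FPKM was added to each. Its RNA measured 6.93 FPKM (4.71 to 9.15) in control and 14.2 FPKM (9.22 to 19.2) with AngII, 2.05 times as high with a log2 ratio of 0.94. The upper control bound and the lower AngII bound almost touch, and centring the median raised the ratio to 1.17. Its listed interval (chromosome 5, 144373848 to 144467329) is 93.5 kb long and shared by 5 loci, against a RefSeq gene length of 8859 bp, so the marks there cannot be assigned to it.

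**Figure D1:**
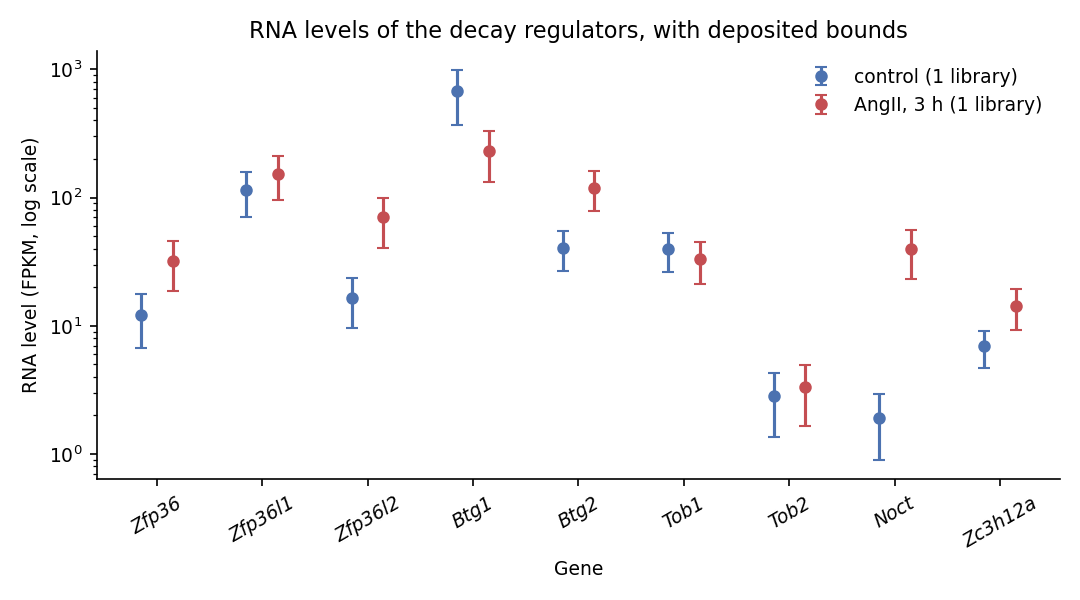
RNA level in FPKM (log axis) of each decay regulator in the control library (blue) and the AngII library (red); points are the deposited estimates and bars the deposited bounds, with 1 library each. Noct went from 1.92 to 39.8 FPKM and Btg1 from 674 to 230.2, while the bars of Zfp36l1, Tob1 and Tob2 overlap.

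**Figure D2:**
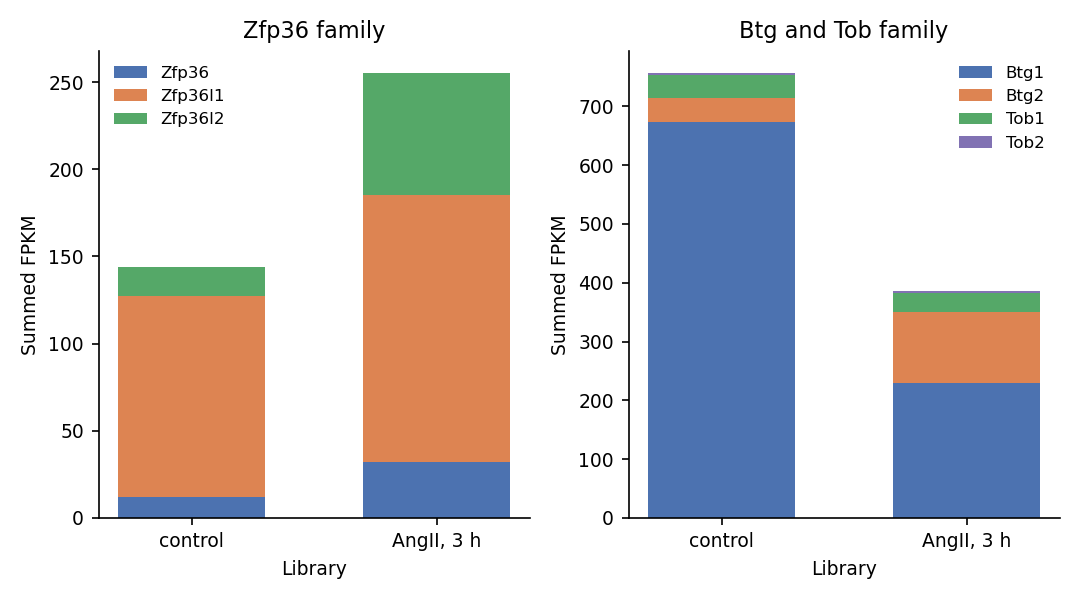
Summed FPKM of the Zfp36 family (left) and the Btg and Tob family (right) in the control and AngII libraries, with 1 coloured segment per gene and no error shown. The Zfp36 sum is 143 and 255 FPKM and the Btg and Tob sum 757 and 386 FPKM, with a larger Btg2 segment after AngII.

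Counted on the ratio with 1 FPKM added, 4 of the 9 genes (Zfp36, Zfp36l2, Btg2 and Noct) were at least 2-fold higher after AngII, against 3.89% of all expressed symbols, and 1 (Btg1) was at least 2-fold lower, against 2.96%. Bounds were apart for all 5 of these, where the shares among expressed symbols were 2.71% higher and 1.58% lower, and also for Zc3h12a. Whatever the fold, bounds were apart for 3.02% of expressed symbols with the AngII value higher and 2.18% with it lower. The choice of the genes used this contrast, so nothing is read from these counts. The median log2 ratio of the 9 genes was 0.94, and 7 lay above 0. Centring the median symbol raised the higher calls among expressed symbols from 325 to 460 and reduced the lower ones from 247 to 110. It moved Zc3h12a past 2-fold, so that 5 of the 9 were higher and Btg1 still lower at -1.30.

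**Figure D3:**
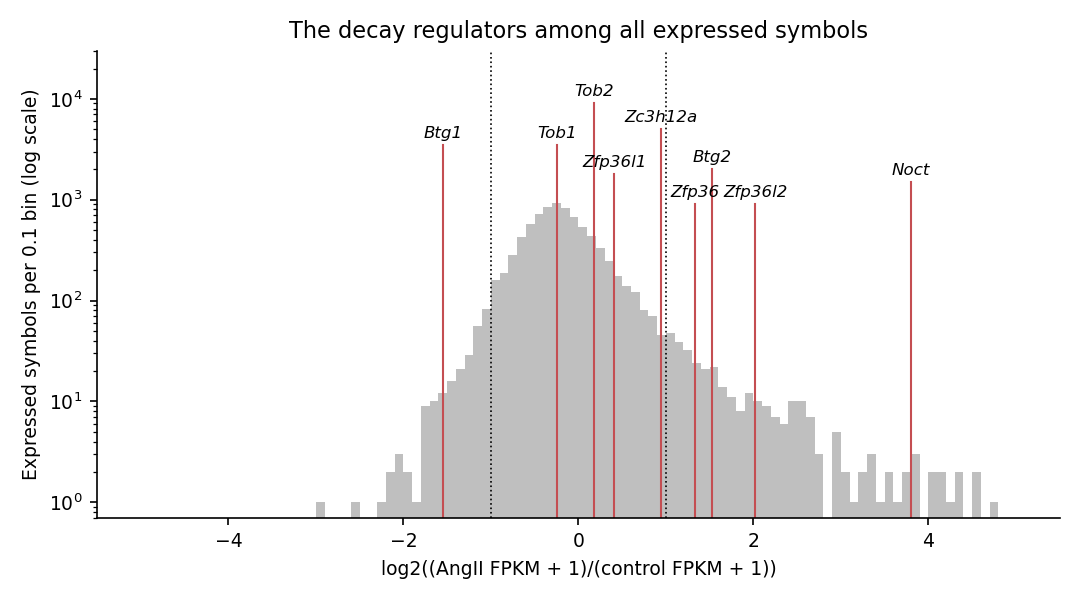
Histogram of the log2 ratio of AngII over control, with 1 FPKM added to each value, over 8349 expressed symbols (grey, log count axis), with red lines at the 9 decay regulators and dotted lines at 2-fold. Noct at 3.80 lies in the upper tail, Btg1 at -1.55 in the lower tail, and Tob1 at -0.24 near the centre.

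The order of the levels also differed between the libraries. In control the order was Btg1, Zfp36l1, Btg2, Tob1, Zfp36l2, Zfp36, Zc3h12a, Tob2 and Noct, and bounds of neighbours overlapped between Btg2 and Tob1, Zfp36l2 and Zfp36, Zfp36 and Zc3h12a, and Tob2 and Noct. After AngII the order was Btg1, Zfp36l1, Btg2, Zfp36l2, Noct, Tob1, Zfp36, Zc3h12a and Tob2. There the bounds of every neighbouring pair overlapped except Zc3h12a and Tob2. Btg1 stood clear of Zfp36l1 in control but not after AngII.

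All 9 genes had H3K4me3 within 1 kb of the locus and H3K36me3 on the locus in both conditions. Among expressed symbols the shares were 96.3% for H3K4me3 in both conditions, and 95.6% in control and 97.5% after AngII for H3K36me3, so the presence of the marks did not set these genes apart. The H3K4me3 regions were wide at most of them. Among the 8 genes with coordinates of their own, the widest region had a median of 7.04 kb in control, against 4.13 kb over 6137 expressed symbols with a region. After AngII the medians were 8.64 and 4.32 kb. In control 7 of the 8 lay above the upper quartile of 5.81 kb, and Noct at 3.37 kb lay below the median. Zfp36 lay in the widest region, 34.6 kb in control and 34.9 kb after AngII, which also touched Plekhg2 and Rps16. The regions at Zfp36l2 (9.95 and 10.2 kb), Zfp36l1 (7.80 and 8.80 kb), Btg1 (7.34 and 8.48 kb), Tob2 (6.73 and 6.24 kb), Tob1 (6.12 and 6.72 kb) and Btg2 (5.97 and 6.08 kb) touched no other named gene.

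Of the 8 genes with coordinates of their own, Noct was the 1 that passed the limits used here for gained marks. These were 5 kb of H3K4me3 and 20 points of H3K36me3 cover, both set after the values were seen. Cover in control left most of the other genes no room to reach either limit, so Noct is not singled out from all 8. In control an H3K4me3 region of 3366 bp (chromosome 2, 140119163 to 140122528) covered the lower-coordinate end of the locus, with isolated regions of 612 and 765 bp further in. After AngII a single region of 11680 bp (140117995 to 140129674) covered that end and most of the 612 bp region. A region of 1760 bp overlapped the 765 bp one. By score the region at the lower-coordinate end stood above 84.0% of its list in control and 67.0% after AngII, so it was wider but of lower standing. The regions of 612, 765 and 1760 bp stood above 18.1%, 14.5% and 6.42% of their lists. Within 1 kb of the locus H3K4me3 covered 4596 bp in control and 12125 bp after AngII, a difference of 7529 bp. A difference of 5 kb or more was found at 1.38% of 6448 expressed symbols with coordinates of their own, and one as large as at Noct at 33 of them. A region at least as wide as that of Noct was found at 67.7% of symbols in control and at 6.17% after AngII. The other 7 genes with coordinates of their own differed less within 1 kb of the locus. Zfp36l1, Btg2, Tob1 and Tob2 had 178 to 1165 bp more H3K4me3 there after AngII. The whole Tob2 region was narrower after AngII, at 6240 bp against 6732 bp in control, so its gain holds only within that window. Over the 6448 symbols the median difference was 42.0 bp, with quartiles of -291 and 604 bp, so Btg2 and Tob2 at 178 and 378 bp lay within the quartiles and Zfp36l1 and Tob1 at 694 and 1165 bp above them. The deposited H3K4me3 regions come in bins of 153 bp in control and 160 bp after AngII. At Zfp36, Zfp36l2 and Btg1 the whole window was covered in both conditions, so a gain there could not be seen. Control H3K4me3 already covered 7774 of 10061 bp of the window at Zfp36l1, 5902 of 6340 bp at Btg2 and 5401 of 7256 bp at Tob1. A gain of 5 kb was out of reach there too, and only Noct and Tob2 had room for it.

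H3K36me3 lay over 31.1% of the Noct locus in control and over all of it after AngII, which is 68.9 points more. The control region (chromosome 2, 140134239 to 140236135) began 13929 bp inside the locus and ran 95.6 kb past its far end, over the neighbouring Elf2, a transcription factor gene at 20.7 and 24.9 FPKM. After AngII the region (140116339 to 140235802) kept nearly the same far end and began 3971 bp before the locus. Cover was higher by over 20 points at 8.20% of expressed symbols with coordinates of their own, and by as much as at Noct at 151 of 6448; it was lower by over 20 points at 2.30%, and at none of the 8 genes. The part of the control cover that belongs to Noct rather than Elf2 was not tested.

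The share of the locus under H3K36me3 differed by at most 5.02 points at the other genes, while the regions around some of them differed in width. Zfp36, Zfp36l1, Zfp36l2, Btg1, Btg2 and Tob2 were fully covered in both conditions, as were 49.3% of expressed symbols with coordinates of their own. A gain of cover could therefore not be seen at these genes. Tob1 was covered over 63.1% in control and 68.2% after AngII. Full cover at the short loci says little about the gene itself where the region is long. Zfp36 lay in a region of 111 kb touching 7 named genes in control and of 133 kb touching 8 after AngII. Tob2 lay in a region of 81.3 kb touching 4 named genes in control and of 145 kb touching 6 after AngII. Zfp36l2 lay in a region of 317 kb shared with Thada in both conditions. Btg2 differed from these, since its H3K36me3 region was 5.30 kb in control and 6.03 kb after AngII and held no other named gene. The edges of the Btg2 region lay 129 bp before and 832 bp past the locus in control, and 290 and 1398 bp after AngII, where the deposited regions come in bins of 589 bp in control and 548 bp after AngII. Btg1, whose RNA was lower, had full cover of its 2258 bp in both conditions, in regions of 49.5 and 54.8 kb that touched no other named gene. By score the Btg1 region stood above 80.3% of its list in control and 59.0% after AngII. This standing was also lower after AngII at Zfp36l1, Zfp36l2 and Tob1, and higher at Zfp36, Btg2, Tob2 and Noct. The scale of the score is unknown, and its differences were not tested.

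**Figure D4:**
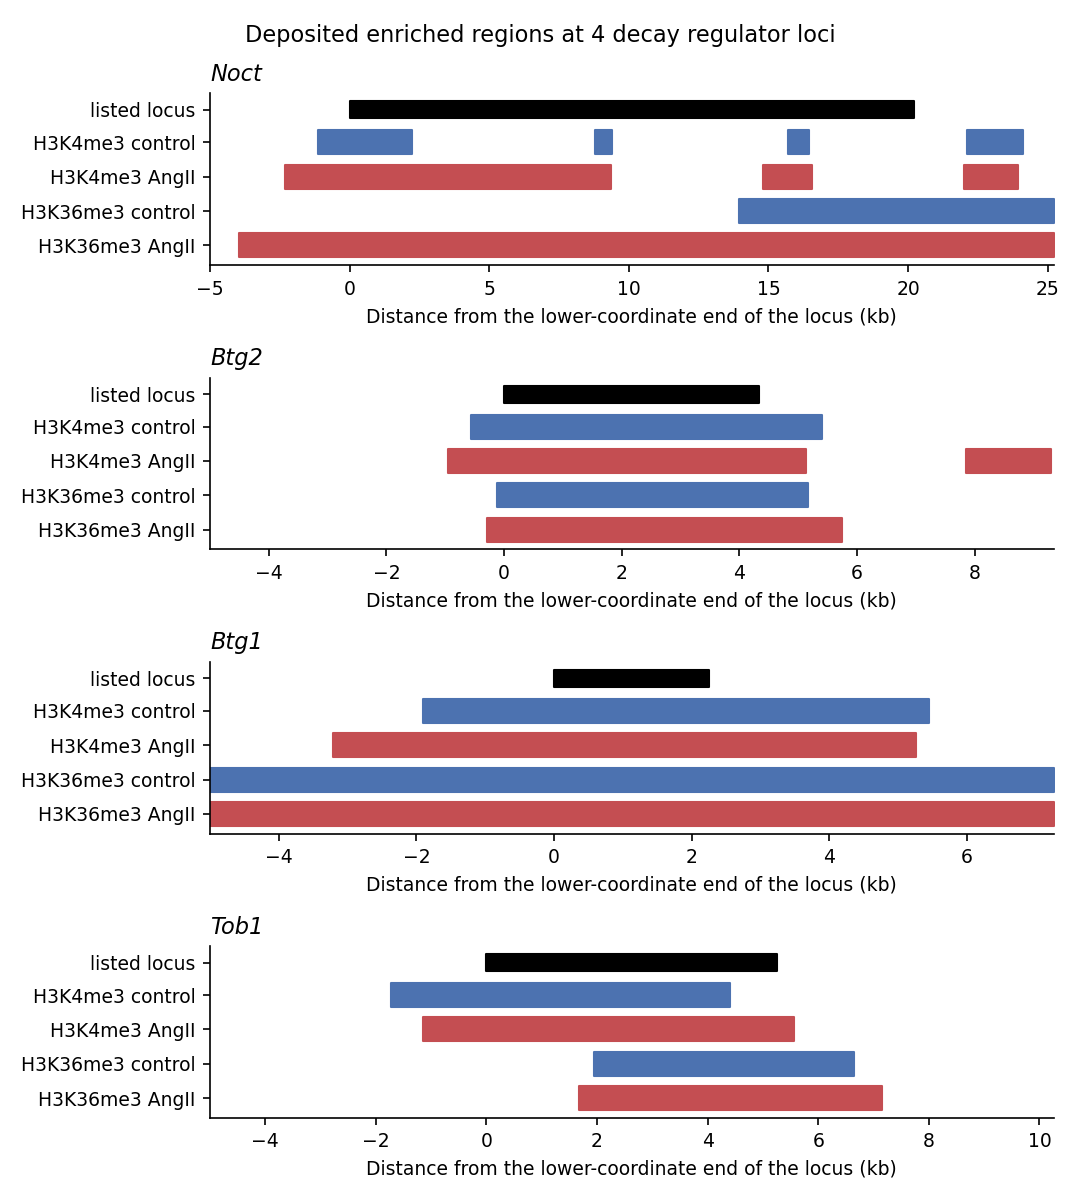
Deposited H3K4me3 and H3K36me3 regions in control (blue) and after AngII (red) at the loci of Noct, Btg2, Btg1 and Tob1 (black), by distance in kb from the lower-coordinate end of the locus, cut 5 kb either side. At Noct the H3K4me3 region at that end goes from 3366 to 11680 bp and H3K36me3 goes from 31.1% to all of the locus. At Btg2 a separate H3K4me3 region of 1440 bp is listed after AngII only, and the H3K4me3 edges at Btg1 and Tob1 are shifted between conditions.

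The estimates of the decay enzyme genes that had a locus lay within 2-fold, though the bounds of single genes allow more. Those of Cnot8, for example, were 19.0 to 46.2 FPKM in control and 11.5 to 28.4 after AngII. Other genes looked for, among them Pan2, Pan3, Parn and Xrn1, had no usable locus of their own symbol, so nothing is said about them. Of 10 deadenylase genes with a locus, which include CCR4-NOT subunits and poly(A)-binding proteins, 0 were past 2-fold and 0 had bounds apart. Their median log2 ratio was -0.07, and 0.16 when centred. Cnot7 and Cnot8, the deadenylase subunits that Btg and Tob proteins bind, stood at 11.1 and 8.30 FPKM (log2 ratio -0.39) and at 32.6 and 19.9 FPKM (-0.68). Cnot6l, another catalytic subunit, stood at 14.3 and 21.5 FPKM (0.56). Of 12 decapping and 5′ to 3′ decay genes 0 were past 2-fold (median -0.18, and 0.03 centred), with the decapping enzyme Dcp2 lowest at a log2 ratio of -0.70. Of 10 exosome genes 0 were past 2-fold (median -0.28, and -0.10 centred). Across these 32 genes the median was -0.22, the same as over all expressed symbols, where 3.89% were higher and 2.96% lower. With shares this small, nothing is read from the counts of 0.

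Among 16 other expressed RNA-binding regulators of stability, 0 were past 2-fold higher on the ratio with 1 FPKM added and 1 was lower. The shares among all expressed symbols were 3.89% higher and 2.96% lower, and nothing is read from these counts. The lower one was Tia1, a translational repressor that binds U-rich RNA, with 13.0 FPKM (7.15 to 18.9) in the control library and 4.25 FPKM (2.06 to 6.44) in the AngII library, a log2 ratio of -1.42 with bounds apart. Zc3h12c, a relative of Zc3h12a, stood at 7.52 and 16.0 FPKM, with overlapping bounds; it is over 2-fold higher by the quotient of these values and not with 1 FPKM added. Btg3 of the Btg family stood at 43.5 and 50.9 FPKM. Elavl1, which stabilises AU-rich RNAs, stood at 43.7 and 47.3 FPKM, and Hnrnpd, another AU-rich element binder, at 24.1 and 26.5 FPKM.

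Of 18 expressed genes on a list of textbook AU-rich or Regnase targets, 10 were past 2-fold higher, against 3.89% of all expressed symbols, bounds being apart for 9, and 0 were past 2-fold lower, against 2.96%. Their median log2 ratio was 1.36, against -0.22 over all expressed symbols, and values of several of these genes were known when the list was made, so nothing is read from the count about such targets in general. By the ratio with 1 FPKM added, which lowers the rank of scarce RNAs, the largest differences with bounds apart were those of the prostaglandin synthase Ptgs2 (3.89 and 86.1 FPKM), the early response factor Fos (1.24 and 10.3), the cytokine Lif (0.795 and 6.12), the chemokine Ccl2 (0.923 and 6.30), the kinase Pim1 (log2 ratio 1.83) and Ier3 (52.7 and 172, at an interval shared by 82 loci). Il6, the textbook target of Zc3h12a, stood at 4.64 and 5.06 FPKM, and Tnf, that of Zfp36, was listed at 0 in both libraries, with the same limit as for the markers. Of 6 expressed genes of the p38 kinase pathway, which phosphorylates Zfp36, 1 was 2-fold higher, against 3.89% of all expressed symbols. It was Map2k3, an upstream kinase, at 9.68 FPKM (5.40 to 14.0) and 48.1 FPKM (28.1 to 68.1). Nothing is read from this count. Mapkapk2, the kinase acting directly on Zfp36, stood at 57.7 and 79.4 FPKM.

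**Figure D5:**
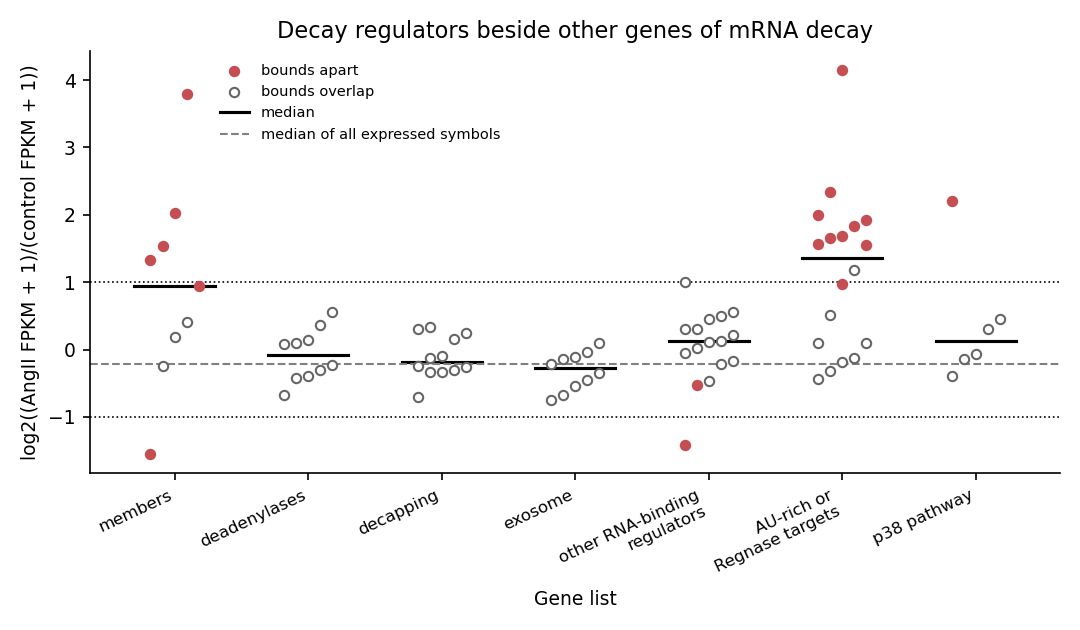
Log2 ratio of AngII over control, with 1 FPKM added, for each expressed gene of the 9 decay regulators and 6 related lists; red points have bounds apart, open points do not, black bars are list medians, the dashed line the median of all expressed symbols and dotted lines 2-fold. The estimates of the 32 deadenylase, decapping and exosome genes lie within 2-fold of 0. The decay regulators, chosen with their ratios known, run from -1.55 to 3.80.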

How the data were processed

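RNA was measured by sequencing of total RNA depleted of ribosomal RNA, and the histone marks by ChIP-seq, with 1 library per condition and assay; the 2 input libraries were not analysed here. The RNA table was deposited by the authors in FPKM with lower and upper bounds; per the submitters' processing notes it rests on TopHat, Cufflinks and Cuffdiff and the rn4 assembly, with no version stated. Both samples' RNA tables are identical and hold both conditions. The bounds are model errors without replicate variation; they imply a median relative SD of 21.1% at FPKM of 10 or more. The depth of the libraries is unknown. ChIP-seq regions carry a score deposited by the authors, used only to filter and to rank regions within a list. The notes name Bowtie, and the program that called the regions was not given in the sources used here.

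Of 20869 loci with an accession, 16246 matched a symbol in the RefSeq table of GRCr8, used for names only. Locus starts count from 0 in the table (end minus start equals the RefSeq gene length for 3 of the 9 genes) and are printed 1-based. Ratios were computed with pandas 2.3.3 as log2((AngII FPKM + 1)/(control FPKM + 1)) and called at 2-fold; promoters were read from the RefSeq sequence table of GRCr8. Overlap needed at least 1 bp. Scripts were tested on simulated data. The genes, lists and motifs were chosen with earlier results of these data known. From each list the text names genes past 2-fold with bounds apart, up to 6, and the 3 symbols nearest to the member with the largest ratio; other names (Cnot7, Cnot8, Cnot6l, Dcp2, Zc3h12c, Btg3, Elavl1, Hnrnpd, Il6, Tnf and Mapkapk2) were chosen after their values were seen. The full cyclic AMP response element was added to the motifs after a first search of the sequences, and the limits of 20 points and 5 kb for gained marks were set after the values were seen. 1 gene of the target list is not reported here and was left out of its counts. Alternatives varied the pseudocount, FPKM minimum, scaling, threshold, choice of locus, window and score.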

Additional observations from a re-analysis of the deposited data

How the results depend on the processing

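The counts of decay regulators changed little over the settings tried. Noct, Btg2, Zfp36 and Zfp36l2 were past 2-fold higher, and Btg1 lower, under each of the 9 RNA alternatives. Zc3h12a joined them with a pseudocount of 0.1 (log2 ratio 1.02), when centred (1.17) and with a threshold of 1.5-fold. The log2 ratio of Noct was 4.30 with a pseudocount of 0.1 and 2.69 with 5. Over all expressed symbols the 325 higher and 247 lower calls became 392 and 580 with a pseudocount of 0.1, 198 and 50 with 5, 460 and 110 when centred, 663 and 1365 with a threshold of 1.5-fold, and 226 and 132 with bounds apart. Higher calls made up 56.8% of the calls as reported, 40.3%, 79.8%, 80.7% and 32.7% under the first 4 of these, and 62.1% scaled to the upper quartile. All 9 genes kept both marks under each alternative except that at least 50% cover by H3K36me3 left out Noct in control. The H3K4me3 difference at Noct was 7529 bp and ranged from 7146 to 8628 bp. With shared intervals included, a setting chosen after seeing the data, 2.79% of symbols had H3K4me3 wider by 5 kb or more. No paired analysis was possible because there was 1 library in each arm, which also leaves nothing to omit. The depth is unknown, so what it limits could not be computed; the deposited bounds are the only measure of precision, and those of Tob2 include 2-fold in either direction.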

Other observations

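Small loci beside the main ones carried the same symbols. A locus of 790 bp, 499 bp from Zfp36, measured 1.33 and 0.941 FPKM in the control and AngII libraries, and a locus of 945 bp, 1236 bp from Zfp36l2, stood at 0.962 and 1.06 FPKM. Bounds overlapped at both, in contrast to the main loci of these genes, and the difference between the loci was not tested.

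A second H3K4me3 region of 1440 bp was listed after AngII, 3.51 kb past the higher-coordinate end of Btg2, and no control H3K4me3 region lay within 5 kb of that end other than the one on the locus. Outside the 5 promoters shown, Zfp36l1 held an AP-1 site 152 to 146 bases before its RefSeq start, Tob2 a TGACG core at 65 to 61 bases, and Zc3h12a 1 on the opposite strand at 49 to 45 bases. Zfp36l1 also held a TATA box at 54 to 49 bases. Tob1 held a TATA box at 188 to 183 bases. An NF-kB match lay on the opposite strand of the Tob1 window at 247 to 238 bases. Unlike those in the 5 windows shown, this match has the purine after GGG. The RefSeq gene model of Tob1 is 2039 bp, against a listed locus of 5256 bp; its promoter window was not compared with the listed locus.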
